A study of Rattus norvegicus with 8 samples.

Results

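Nfkbia, Cebpb, Cebpd and Zfp36 encode regulators of the acute response to cytokines, stress and glucocorticoids, and were followed here in whole rat brain over a single exposure to the volatile anaesthetic isoflurane. All probe sets (groups of short oligonucleotides that read one transcript) that the platform annotation pairs with one of these 4 gene symbols were taken. There were 9 of them among the 8799 of the array, which name 4736 genes: 2 for Nfkbia, 2 for Cebpb, 3 for Cebpd and 2 for Zfp36. The genes were chosen by measured values of these arrays. Their levels after 2 hr against control are taken as the values used, so that comparison, and any exposure against control, is given as a description without a test. Whether the 1 hr values also entered the choice is not known, and the 1 hr comparison shares the control arrays, so its tests are not separate from the choice.

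Total RNA of whole brain was hybridised to 8 arrays, 1 per sample. The 3 control samples came from rats that breathed isoflurane for 3 min and were perfused at once with cold saline. Exposure to 2% isoflurane lasted 1 hr in 2 samples and 2 hr in 3 samples, and every rat was intubated. No unexposed group was analysed here, so the control is itself a brief exposure, and the labels state no strain, sex or age. The labels mention perfusion only for the controls, so perfusion cannot be told apart from exposure. Each label speaks of a rat without an animal number, and p-values therefore reflect the variation among these samples, which may be partly technical.

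NF-kappaB is a transcription factor that stays in the cytoplasm while bound to an inhibitor. Nfkbia encodes that inhibitor, IkappaB-alpha, which is degraded when cytokines signal and is then made again, because NF-kappaB itself switches the Nfkbia gene on. Glucocorticoids also raise Nfkbia. Cebpb and Cebpd encode the leucine zipper transcription factors C/EBP-beta and C/EBP-delta, which cytokines and hormones induce and which drive acute phase genes. Zfp36 encodes tristetraprolin, a zinc finger protein that binds AU-rich elements in cytokine mRNAs and promotes their decay.

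A pair of promoters is shown because NF-kappaB control of Nfkbia and cyclic AMP control of Cebpb are textbook features of these genes. They are the 250 bases before the transcript start, from RefSeq on assembly GRCr8. The Nfkbia stretch, chr6:78597073-78597322 on the minus strand, has its match to the NF-kappaB consensus in capitals, and the Cebpb stretch, chr3:176816755-176817004 on the plus strand, has its matches to TGACG, the core of the cyclic AMP response element, in capitals.
Nfkbia: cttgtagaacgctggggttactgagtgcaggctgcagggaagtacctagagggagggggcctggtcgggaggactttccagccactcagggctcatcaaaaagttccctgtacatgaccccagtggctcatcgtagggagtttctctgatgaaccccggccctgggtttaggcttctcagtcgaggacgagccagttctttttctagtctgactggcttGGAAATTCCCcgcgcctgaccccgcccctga
Cebpb: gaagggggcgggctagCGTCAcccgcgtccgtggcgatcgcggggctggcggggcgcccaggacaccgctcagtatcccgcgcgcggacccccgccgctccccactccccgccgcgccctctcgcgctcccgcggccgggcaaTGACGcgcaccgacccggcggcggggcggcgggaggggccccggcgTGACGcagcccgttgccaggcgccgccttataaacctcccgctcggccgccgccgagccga
Both strands were searched, so a match can read as the reverse complement. The Nfkbia match, GGAAATTCCC, lies 31 to 22 bases before the start, and 6.33% of the 33469 promoters of the RefSeq table hold the consensus in the same window. Cebpb has 3 matches to TGACG, which 18.2% of the promoters hold. The promoters of Cebpb and Zfp36 have no match to the NF-kappaB consensus, and those of Nfkbia and Zfp36 none to TGACG. None of these 3 promoters has a match to ACANNNTGT, the core of the glucocorticoid response element, which 5.81% hold, or to the STAT motif TTCNNNGAA, which 7.67% hold. Cebpd was not matched in the table. These matches describe the letters of the window only.

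The values are the authors' linear intensities, already scaled so that the arrays share nearly one trimmed mean. Values at or below an intensity of 9.1, the 20th percentile of all values, were set to that floor before log2 was taken. Of the 9 probe sets, 8 lay above the floor on at least 2 arrays and entered the fit across 7770 probe sets. The one left out, S77528cds_s_at of Cebpb, was above the floor only on 2 hr replicate 2, at 10.2.

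Nfkbia gave the clearest separation. Probe set X63594cds_at read 129.7, 116.2 and 120.2 on the control arrays, 285 and 283.8 on the 1 hr arrays, and 199.9, 213.5 and 279.3 on the 2 hr arrays. Every exposed array lay above every control array, and the 1 hr arrays lay above the 2 hr arrays. The second probe set, X63594cds_g_at, read 55.1, 57.7 and 71.6 in controls, 103.6 and 178.6 after 1 hr, and 110.7, 188.3 and 127.8 after 2 hr. Its exposed arrays were again all above the controls, but the 1 hr and 2 hr arrays overlapped. Both probe sets carry the name of the same sequence record, X63594, so they are 2 readings of 1 transcript and not separate evidence.

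After 1 hr Nfkbia averaged 284.4 ± 0.849 (SD, n = 2), against 122 ± 6.93 (SD, n = 3) in controls on X63594cds_at, a log2 change of 1.22 (SE 0.270) or 2.33-fold. The 95% interval of limma ran from 1.53-fold to 3.55-fold. On X63594cds_g_at the log2 change was 1.16 (SE 0.379), or 2.23-fold. Neither passed over all probe sets (limma with Benjamini-Hochberg adjustment, adjusted p = 1 for both, and 0.287 to 1 for X63594cds_at over the alternative settings). X63594cds_at stood eighth of 7770 when probe sets were ordered by unadjusted p, and the groups had no overlap on either probe set.

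After 2 hr Nfkbia averaged 230.9 ± 42.5 (SD, n = 3), against 122 ± 6.93 (SD, n = 3) in controls on X63594cds_at, a log2 difference of 0.91 (SE 0.241). On X63594cds_g_at the means were 142.3 ± 40.8 (SD, n = 3) after 2 hr and 61.5 ± 8.87 (SD, n = 3) in controls, a log2 difference of 1.18 (SE 0.339). Between 2 hr and 1 hr the log2 changes were -0.32 on X63594cds_at, with a 95% interval from -0.92 to 0.29, and 0.03 on X63594cds_g_at, with an interval from -0.82 to 0.88. Neither passed (limma, adjusted p = 1 for both).

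Nfkbia was also read within arrays alike in a pair of array properties. Every exposed array lay above every control on X63594cds_at, so the direction against control was fixed in any such split. Only the size could vary, and the split is no check on array effects. The highest intensity on an array was 23009.4 to 37711.8 on control replicate 3, 1 hr replicate 1 and 2 hr replicate 3, and 3504.2 to 12444.6 on the other 5. Within those 3 arrays X63594cds_at was higher by 1.25 (log2) after 1 hr and by 1.22 after 2 hr than in the control, 1 array against 1 each. Within the other 5 it was higher by 1.21 after 1 hr (1 array against 2) and by 0.75 after 2 hr (2 against 2). A 5S ribosomal RNA control probe set read below 50 on control replicates 1 and 2 and 2 hr replicate 1. Within these X63594cds_at was higher by 0.70 after 2 hr, and within the other arrays by 1.02 after 2 hr and 1.24 after 1 hr. No 1 hr array had a low 5S reading. The mean log2 level of the microglia and macrophage markers stood higher on the 1 hr arrays too. For the 9 measured it was 6.31 and 6.37 after 1 hr, against 5.96 to 6.26 in controls, and it was 6.11 to 6.69 after 2 hr. The markers did not move together: at 1 hr 6 had a log2 change above 0 and 3 below, with a median of 0.09. Cd74 (1.06) and Itgam (0.86) had the largest. Pituitary markers also stood higher after 1 hr: the 7 measured summed to 305.7 and 535.6 after 1 hr, against 253.7 to 275.6 in controls, and to 238 to 922.9 after 2 hr. Choroid plexus markers, 4 measured, summed to 855.9 and 4251.3 after 1 hr, against 570.5 to 852.8 in controls, and to 767.2 to 1039.7 after 2 hr. Their mean log2 level overlapped, at 7.34 and 8.53 after 1 hr against 6.88 to 7.35 in controls. The part of these markers in the Nfkbia and Cebpd readings was not tested.

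**Figure D1:**
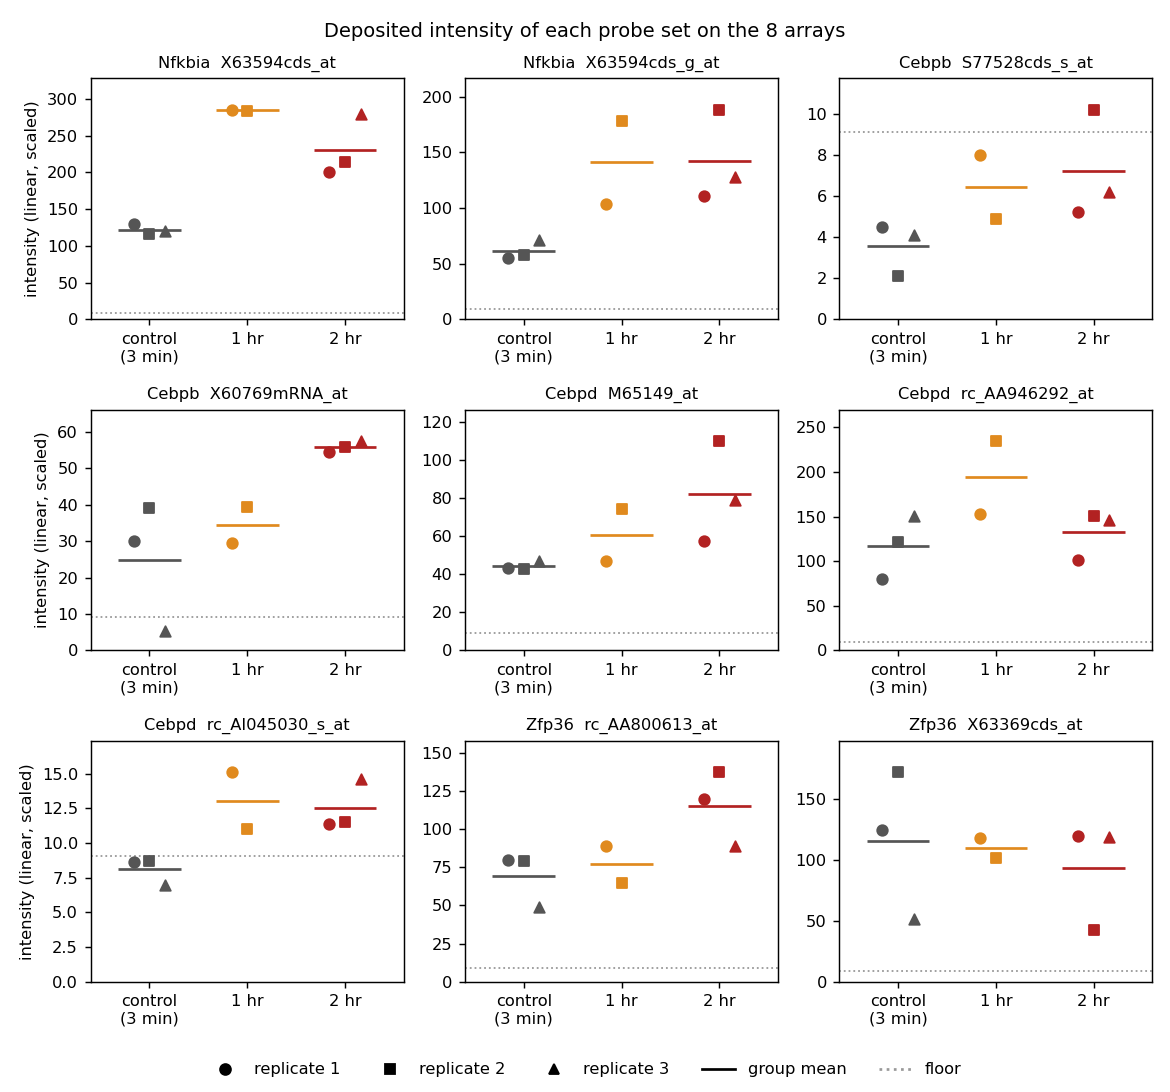
Linear intensity (y axis, from 0) of each of the 9 probe sets on the 8 arrays, by exposure (x axis). Points are arrays with their replicate number as shape, bars are group means and the dotted line is the floor of 9.1. Both Nfkbia panels have all 5 exposed arrays above the 3 controls, and control replicate 3 lies at 5.4 on X60769mRNA_at of Cebpb.

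Cebpb, the C/EBP-beta gene, was highest after 2 hr. Probe set X60769mRNA_at read 30.1, 39 and 5.4 on the control arrays, 29.5 and 39.3 after 1 hr, and 54.6, 55.8 and 57.5 after 2 hr. The 2 hr arrays lay close together and above all others, the 1 hr arrays lay in the range of control replicates 1 and 2, and control replicate 3 was under the floor. The 2 hr mean was 56 ± 1.46 (SD, n = 3), against 24.8 ± 17.4 (SD, n = 3) in controls, a log2 difference of 1.35 (SE 0.558). Control replicate 3 set much of that size: without it the difference was 0.71. The 1 hr change, 0.63 (SE 0.623), did not pass (limma, adjusted p = 1), and without control replicate 3 it was -0.0090. The change of 2 hr against 1 hr was 0.72 (SE 0.623, limma adjusted p = 1), with no overlap between the groups. The dim probe set S77528cds_s_at read 4.5, 2.1 and 4.1 in controls, 8 and 4.9 after 1 hr, and 5.2, 10.2 and 6.2 after 2 hr, nearly all under the floor, where values have no order.

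The 3 probe sets of Cebpd, the C/EBP-delta gene, differed in which exposure read highest. M65149_at read 43.5, 42.6 and 46.9 in controls, 46.9 and 74.2 after 1 hr, and 57.5, 109.8 and 78.9 after 2 hr. The 2 hr arrays were all above the controls, and the lower 1 hr array equalled the highest control. Its 2 hr mean was 82.1 ± 26.3 (SD, n = 3), against 44.3 ± 2.27 (SD, n = 3) in controls, a log2 difference of 0.84 (SE 0.383), and 0.60 without 2 hr replicate 2. After 1 hr it changed by 0.41 on the log2 scale (SE 0.428), which did not pass (limma, adjusted p = 1), and by 0.08 without 1 hr replicate 2.

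Probe set rc_AA946292_at of Cebpd read 80.1, 121.2 and 151 in controls, 153.3 and 234.6 after 1 hr, and 101.9, 150.6 and 146 after 2 hr. Here the 1 hr arrays were highest and the 2 hr arrays overlapped the controls. The log2 change was 0.74 (SE 0.374) after 1 hr and -0.54 (SE 0.374) for 2 hr against 1 hr, and neither passed (limma, adjusted p = 1 for both). The log2 difference of 2 hr against control was 0.20 (SE 0.334), and -0.05 without control replicate 1. Probe set rc_AI045030_s_at read 8.6, 8.7 and 7 in controls, 15.1 and 11 after 1 hr, and 11.4, 11.5 and 14.6 after 2 hr. Its controls were all under the floor, so the exposed groups were at least 1.42-fold (1 hr) and at least 1.36-fold (2 hr) higher. It passed the filter through the exposed arrays alone and had to differ in that direction.

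The 2 probe sets of Zfp36, the tristetraprolin gene, went apart. On rc_AA800613_at the readings were 79.8, 79.2 and 49.2 in controls, 88.9 and 64.9 after 1 hr, and 119.9, 137.3 and 88.9 after 2 hr. The 2 hr arrays were above the controls, while the 1 hr arrays overlapped both. The 2 hr mean was 115.4 ± 24.5 (SD, n = 3), against 69.4 ± 17.5 (SD, n = 3) in controls, a log2 difference of 0.74 (SE 0.346), and 0.51 without control replicate 3. The log2 change was 0.17 (SE 0.386) after 1 hr and 0.58 (SE 0.386) for 2 hr against 1 hr, and neither passed (limma, adjusted p = 1 for both). Without control replicate 3 the 1 hr change was -0.07.

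On X63369cds_at Zfp36 read 124.4, 172.2 and 51.4 in controls, 118.3 and 101.9 after 1 hr, and 119.9, 42.3 and 119.4 after 2 hr. The groups overlapped throughout, and control replicate 3 and 2 hr replicate 2 were the low arrays. The log2 difference of 2 hr against control was -0.29 (SE 0.536), but -0.79 without control replicate 3 and 0.21 without 2 hr replicate 2. It also turned with the arrays compared: 1.22 within the 3 arrays of highest top intensity and -1.04 within the other 5. The 1 hr change was 0.09 (SE 0.599), which did not pass (limma, adjusted p = 1), and -0.41 without control replicate 3.

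**Figure D2:**
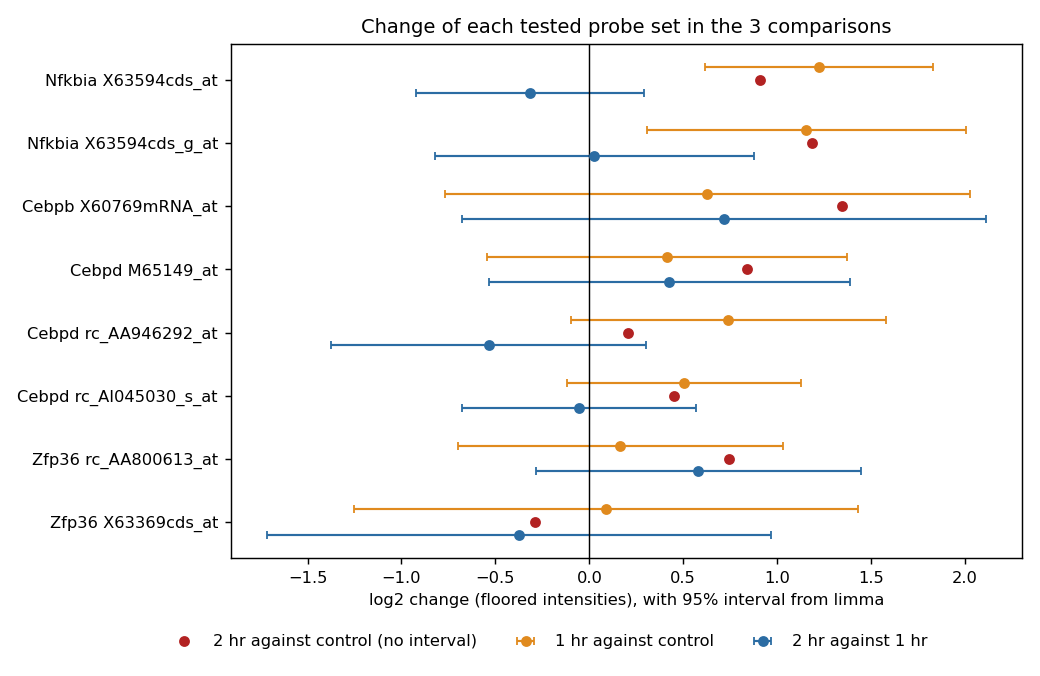
Log2 change (x axis) of the 8 tested probe sets (y axis) for 1 hr against control, 2 hr against control and 2 hr against 1 hr, with the 95% interval from limma for the first and the last of these. After 1 hr the intervals of both Nfkbia probe sets lie above 0 and those of the other 6 include 0, as do all intervals of 2 hr against 1 hr.

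Counted over the tested probe sets, 0 of 8 passed limma's adjusted threshold of 0.05 at 1 hr, and 0% of all 7770 passed it in any of the comparisons. At an unadjusted p under 0.05, 2 of the 8 passed at 1 hr, both of Nfkbia, against 2.68% of all probe sets. At 1 hr 4 of the 8 had every exposed array above every control, against 7.54% of all probe sets, and they belonged to Nfkbia and Cebpd. Without rc_AI045030_s_at, whose controls were all at the floor, it was 3 of 7. At 2 hr 6 of the 8 did, and 5 of 7 without that probe set. The share of all probe sets was 2.9%, from which nothing is read, since the genes were chosen with this comparison known. All 5 exposed arrays were above all 3 controls for 3 of the 8, the pair of Nfkbia probe sets and the floored rc_AI045030_s_at, where the share of all was 0.927%. Nothing is read from that share either. The comparison holds the values used for the choice, the Nfkbia pair reads 1 transcript, and the filter fixed the direction of rc_AI045030_s_at. Between 2 hr and 1 hr 0 of 8 passed limma, and 0 of 8 had an unadjusted p under 0.05, against 2.77% of all. In that comparison 1 of the 8, of Cebpb, had every 2 hr array above every 1 hr array, against 5.98% of all, and 2 had every 2 hr array below, 1 each of Nfkbia and Cebpd, against 7.82%. Against control 0 of the 8 had every exposed array below the controls, against 5.11% at 1 hr, 2.55% at 2 hr and 1% for all 5 exposed arrays. The log2 change was above 0 for 8 of 8 at 1 hr and 4 of 8 for 2 hr against 1 hr, against 55.8% and 47.4% of all. It was above 0 for 7 of 8 at 2 hr and 7 of 8 for any exposure, against 52.3% and 55.2%. All counts at 2 hr and for any exposure against control are descriptions, from which nothing is read. The median log2 change of all probe sets was 0.02 at 2 hr and 0.05 at 1 hr.

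Probe sets of one gene did not always track each other over the 8 arrays. These correlations are descriptions over 8 points that share arrays, groups and scaling. The Nfkbia pair had r = 0.82 (Spearman's rho 0.62), and -0.09 once group means were subtracted, so they shared the step between groups and not the order of arrays inside a group. The 3 Cebpd probe sets had r between 0.34 and 0.47 with each other. The Zfp36 pair had r = -0.03 (rho -0.06). Across genes, the readings closest to each other were X63594cds_g_at of Nfkbia and M65149_at of Cebpd, with r = 0.90 (rho 0.95) and 0.94 within groups. Next came X63594cds_at of Nfkbia and rc_AI045030_s_at of Cebpd, with r = 0.88 (rho 0.83) and 0.63 within groups. The controls of rc_AI045030_s_at were all at the floor and it passed the filter through exposed arrays alone, so part of that r was built in.

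**Figure D3:**
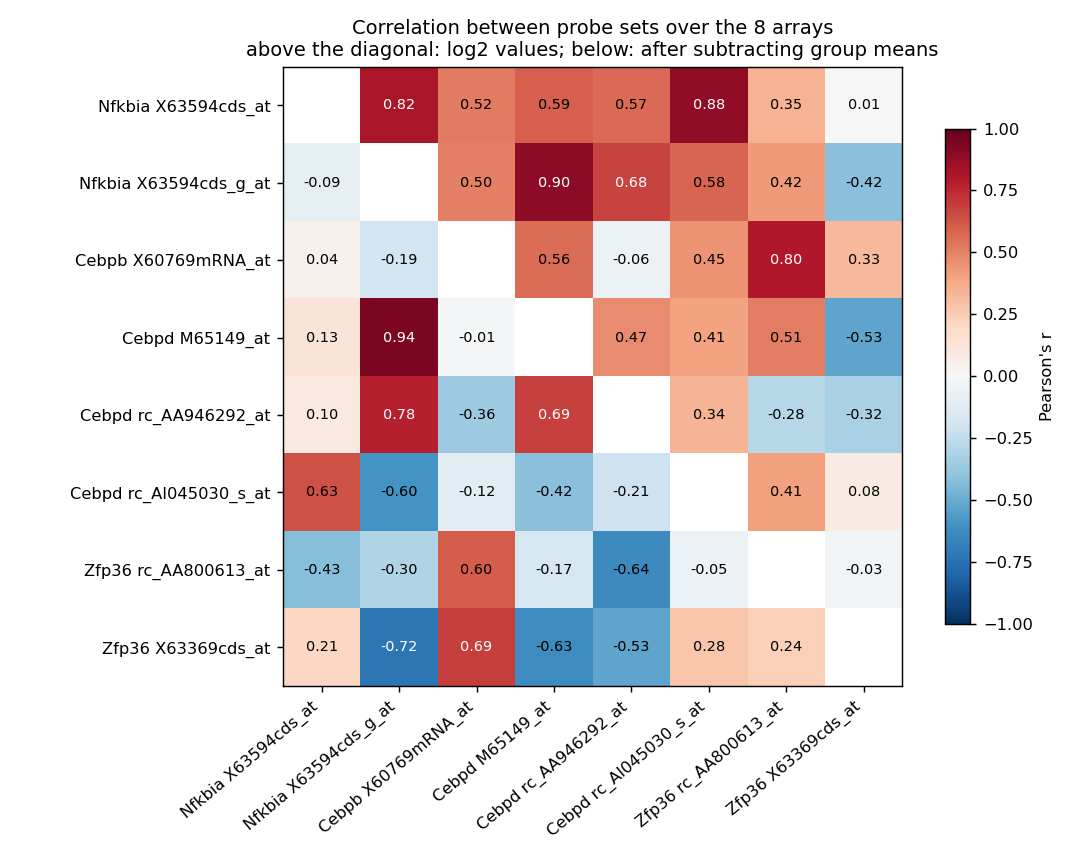
Pearson's r between the 8 tested probe sets over the 8 arrays, for log2 values above the diagonal and after subtraction of group means below it. The Nfkbia pair reads 0.82 above and -0.09 below the diagonal, and the Zfp36 pair -0.03 above it.

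The genes whose log2 values followed the brightest probe set of each regulator most closely over the 8 arrays differed between the 4 regulators. For Nfkbia they were Dcaf7 (r = 0.95, rho 0.81), a substrate receptor of a ubiquitin ligase, Cpsf3 (r = 0.93, rho 0.95), the nuclease that cuts pre-mRNA at its 3' end, and Slc14a1 (r = 0.92, rho 0.75), a urea transporter. All 3 control readings of Dcaf7 and 2 of the 3 of Slc14a1 were at the floor. Within groups r was 0.80 for Dcaf7, 0.89 for Cpsf3 and 0.17 for Slc14a1. Cpsf3 (rc_AA893683_at) read 103.8, 83.9 and 93.2 in controls, 132.9 and 127.1 after 1 hr, and 107.3, 104.6 and 132.7 after 2 hr, a similar order on a smaller scale. An r above 0.8 with Nfkbia was found for 39 of 7769 probe sets, or 0.502%.

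For Cebpb the closest were Slc2a1 (r = 0.97, rho 0.90), which carries glucose across the blood-brain barrier, Gorasp1 (r = 0.97, rho 0.90), a Golgi stacking protein, and Sts (r = 0.97, rho 0.86), steroid sulfatase. Slc2a1 (S68135_s_at) read 827.6, 805.2 and 273.9 in controls, 638.9 and 808.7 after 1 hr, and 1080.1, 996.8 and 1340.2 after 2 hr, with the same low control replicate 3. Without that array r was 0.88 for Slc2a1, 0.94 for Gorasp1 and 0.88 for Sts. As many as 3.78% of probe sets had r above 0.8 with Cebpb.

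For Cebpd (rc_AA946292_at) they were Ins1 (r = 0.90, rho 0.88), an insulin gene, Sostdc1 (r = 0.89, rho 0.90), a secreted antagonist of bone morphogenetic proteins, and Stk24 (r = 0.88, rho 0.90), a kinase, and 0.451% of probe sets were above 0.8. The choroid plexus marker sum was highest on the array where this probe set peaked: the summed intensity of the 4 measured markers was 4251.3 on 1 hr replicate 2, whereas the other 7 arrays ranged from 570.5 to 1039.7. After 1 hr the log2 changes of these markers were 2.53 (Ttr), 0.61 (Enpp2), 0.47 (Igfbp2) and -0.03 (Kl), so the sum need not stand for all 4 markers. Their part in the Cebpd reading was not tested.

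For Zfp36 (X63369cds_at) the closest were Thy1 (r = 0.98, rho 0.93), a surface glycoprotein of neurons, Nefm (r = 0.96, rho 0.98), a neurofilament subunit, and Ptms (r = 0.95, rho 0.76), parathymosin, with 1.35% of probe sets above 0.8. Nefm (Z12152_at) read 403.3, 717.3 and 107.3 in controls, 316.4 and 262.3 after 1 hr, and 584, 100.1 and 334.1 after 2 hr, low on the same 2 arrays as Zfp36. The summed intensity of the 7 measured neuron markers, Nefm among them, was 2964.1 on 2 hr replicate 2 and 2580.5 on control replicate 3, against 3250.7 to 4851.5 on the other 6 arrays. The mean log2 level of these markers was also lowest on control replicate 3, at 7.08. By that measure 2 hr replicate 2, at 7.87, was not below 2 hr replicate 3, at 7.86, where Zfp36 was not low. Their part in the Zfp36 reading was not tested. In whole brain RNA, fewer cells of a type and less RNA per cell cannot be told apart.

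Summed marker levels of immune, vascular and blood cells overlapped between exposed and control arrays. The 9 measured microglia and macrophage markers, whose mean log2 level did separate 1 hr from control, summed to 1719 to 3034.4 after 2 hr, 2067.2 to 2275.1 after 1 hr and 2016.6 to 3149.1 in controls. The 9 endothelial and mural markers summed to 682.1 to 1132.7 after 2 hr, 830 to 930.9 after 1 hr and 627.1 to 1132.9 in controls. The 8 blood cell markers summed to 183.8 to 382.4 after 2 hr, 339.7 to 344.6 after 1 hr and 191.8 to 541.7 in controls. The 7 neuron and 5 oligodendrocyte markers measured were above the floor on every array. So were the 8 meninges and fibroblast markers and the 4 choroid plexus markers, while 1 of the 6 astrocyte markers was at the floor on 2 hr replicate 1. Most values of the arrays lie above the floor, so these readings are no check of the tissue label.

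The other genes of the NF-kappaB pathway gave no passing change, and neither did any of the 7770 probe sets. In this and the following lists, 0 passing genes therefore says nothing about the list itself. Of 25 genes listed for NF-kappaB signalling 6 were tested, 0 passed limma's test at either time, and the median log2 change was 0.25 after 2 hr and 0.23 after 1 hr. Nfkb1 (L26267_at), the p105 and p50 subunit, read 126.7, 70.9 and 73.7 in controls, 75.5 and 79.7 after 1 hr, and 109, 80.8 and 96.5 after 2 hr. Both exposed groups overlapped the controls. Its 2 hr arrays all lay above the 1 hr arrays, as for 5.98% of all probe sets. Tnfrsf1a (M63122_at), the main receptor for tumour necrosis factor, had a log2 difference of 0.88 (SE 0.481) after 2 hr, Il1r1 (M95578_at), the interleukin-1 receptor, one of 0.27 (SE 0.294) with -0.20 on its other probe set, and Traf2 (rc_H32966_at), an adaptor of the tumour necrosis factor receptors, one of -0.29 (SE 0.539). After 1 hr the log2 changes were 0.54 for Tnfrsf1a, 0.19 for Il1r1 and -1.01 for Traf2, whose 1 hr arrays were all below the controls. The other Il1r1 probe set, M95578_g_at, read 0.96 after 1 hr with both arrays above the controls.

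Among the target genes of NF-kappaB, 20 of 28 were tested and 0 passed in either direction, with a median of -0.02 after 2 hr and 0.13 after 1 hr. Tnf (E02468cds_s_at) read 9.4, 11.5 and 9.2 in controls, 7.4 and 7.4 after 1 hr, and 4.8, 6.5 and 5.6 after 2 hr, at or near the floor on every array. Il1b (M98820_at), interleukin-1-beta, read 28.8, 26.6 and 43.8 in controls, 15.1 and 15.4 after 1 hr, and 14.6, 17 and 29.8 after 2 hr. Its 1 hr arrays were below the controls, at a log2 change of -1.08 (SE 0.468) that did not pass (limma, adjusted p = 1), and its other probe set read -0.16. Ccl2 (X17053cds_s_at), a monocyte attractant, had log2 differences of 0.28 after 2 hr and 0.12 after 1 hr, and Icam1 (D00913_g_at), an adhesion molecule, of 0.31 and 0.24, with -0.27 and -0.20 on its other probe set.

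Genes around and below the C/EBP factors did not pass either, like all other probe sets of the array. Of the C/EBP relatives and their cytokine pathway 13 of 16 were tested, with 0 passing at either time and medians of -0.06 after 2 hr and 0.38 after 1 hr. Cebpa (rc_AI236300_at), C/EBP-alpha, had a log2 difference of 0.40 (SE 0.764) after 2 hr, Cebpe (AF034716mRNA_at), C/EBP-epsilon, one of -0.25, Ddit3 (U30186_at), the C/EBP-homologous stress factor CHOP, one of 0.18, and Stat3 (rc_AI639141_at), which carries the interleukin-6 signal, one of -0.32, with 0.39 on its other probe set. Of the acute phase and C/EBP target genes 18 of 23 were tested and 0 passed, with medians of 0.08 after 2 hr and 0.06 after 1 hr. Hp (K01933_at), haptoglobin, read 59.3, 61.5 and 73.2 in controls, 92.8 and 43.3 after 1 hr, and 67.8, 61.1 and 41.6 after 2 hr, with no separation. Lcn2 (rc_AA946503_at), lipocalin 2, had a log2 difference of 0.48 after 2 hr, A2m (M23566exon_s_at), alpha-2-macroglobulin, one of 0.97, with -0.23 to 0.15 on its other 4 probe sets, and Orm1 (V01216_at), an acid glycoprotein, one of -0.30. C3 (M29866_s_at), complement component 3, had the highest value of the list and is named after its values were seen. Its log2 difference was 2.24 (SE 0.657) after 2 hr, with every 2 hr array above every control, and 1.14 (SE 0.735) after 1 hr, with overlap, and neither passed (limma, adjusted p = 1 for both).

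For the relatives and substrates of tristetraprolin there was likewise no passing change, as for every tested probe set of the array. Of the AU-rich element binding proteins and Zfp36 kinases 7 of 14 were tested, 0 passed, and the median was 0.13 at both times. Zfp36l1 (rc_AI136891_at), a relative of Zfp36, read 374.5, 256.7 and 45.6 in controls, 124 and 147.2 after 1 hr, and 286.6, 146.3 and 212.9 after 2 hr, lowest on control replicate 3. Its log2 difference after 2 hr was 0.34 (SE 0.670), that of Hnrnpd (X16933cds_at) 0.33, of Elavl4 (S83320_g_at) -0.45 and of Mapkapk2 (rc_AA799814_at), the kinase that restrains tristetraprolin, -0.08. Of mRNAs with AU-rich elements 15 of 21 were tested and 0 passed, with medians of -0.04 after 2 hr and -0.25 after 1 hr. Fos (X06769cds_g_at), an unstable activity-induced mRNA, read 357.5, 309.1 and 422.9 in controls, 221.5 and 271.4 after 1 hr, and 179.7, 233.3 and 214.5 after 2 hr, with every exposed array below every control. Its other 2 probe sets read log2 differences of -1.20 and -1.39 after 2 hr. Ptgs2 (L25925_s_at), cyclooxygenase 2, had a log2 difference of 0.07 after 2 hr, with -0.77 on its other probe set, and Il3 (U81492_s_at), interleukin-3, one of -0.07.

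Immediate early genes and glucocorticoid-responsive genes were set beside the 4 regulators. Of the immediate early genes 25 of 31 were tested and 0 passed, with medians of -0.04 after 2 hr and -0.15 after 1 hr. After 2 hr Junb (X54686cds_at) read a log2 difference of -0.66, Egr1 (AF023087_s_at) 0.09 and Jun (rc_AI175959_at) 0.35, while the other 3 probe sets of Egr1 read -0.63 to -0.34 and those of Jun -0.17 to 1.07. Of the glucocorticoid-responsive genes other than the 4 regulators 10 of 22 were tested and 0 passed. On the brightest probe set of each, their median was 0.57 after 2 hr, when 10 were above 0, and 0.34 after 1 hr, when 9 were. These genes were known from the same arrays to be higher, so this is not separate evidence.

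Sgk1 (L01624_at), a glucocorticoid-induced kinase, read 87.9, 134.4 and 79.3 in controls, 255.9 and 202.1 after 1 hr, and 391.3, 361 and 322.8 after 2 hr, so that its 2 hr arrays exceeded the 1 hr arrays, in contrast to X63594cds_at of Nfkbia. Gpd1 (AB002558_at), glycerol-3-phosphate dehydrogenase, had log2 changes of 0.06 after 1 hr and 1.87 after 2 hr, and Errfi1 (rc_AI169756_s_at), which restrains EGF receptor signalling, 0.48 and 1.31. The other Errfi1 probe sets read -0.18 and 0.74 (X07266cds_s_at) and 0.20 and 0.50 (M23572_at). Dusp1 (U02553cds_s_at), a phosphatase of MAP kinases, had -0.36 and 0.16. The other Dusp1 probe sets read -0.51 and 0.17 (S74351_s_at) and -0.26 and -0.20 (S81478_s_at). Whether the time course differed between these genes and Nfkbia was not tested.

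**Figure D4:**
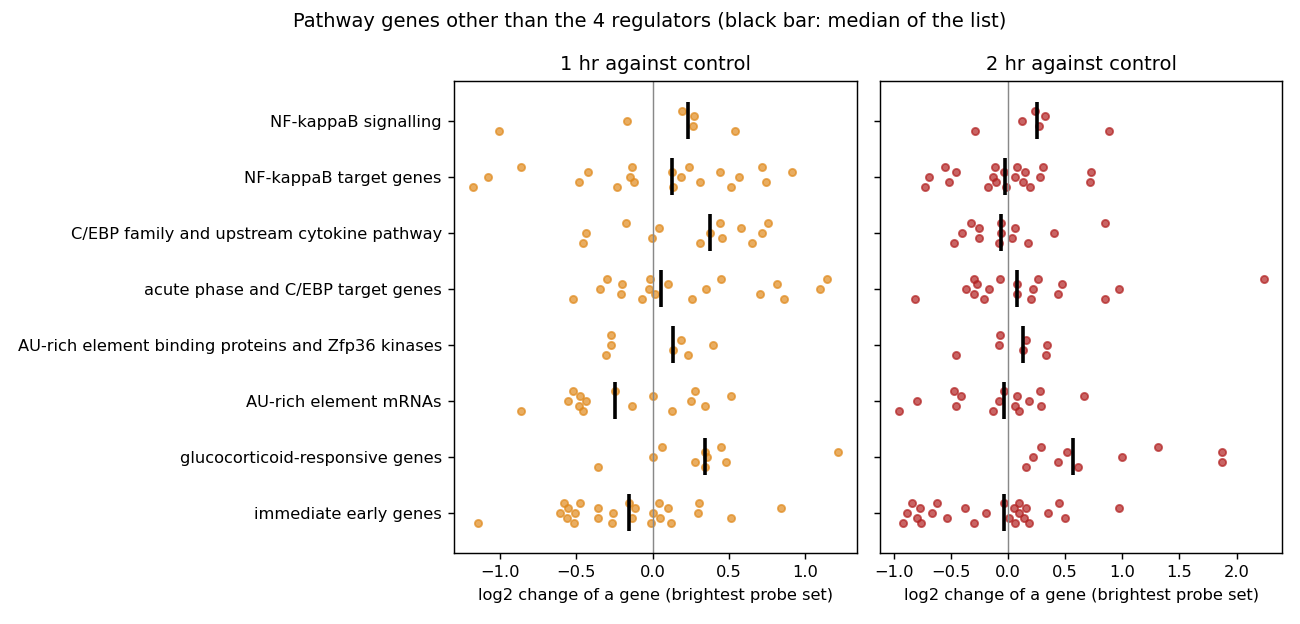
Log2 change (x axis) of each tested gene of 8 pathway lists (y axis) after 1 hr and after 2 hr against control, with the median of each list as a black bar and the 4 regulators left out. Medians lie between -0.25 and 0.38 after 1 hr and, apart from 0.57 for the glucocorticoid-responsive genes, between -0.06 and 0.25 after 2 hr.

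**Figure D5:**
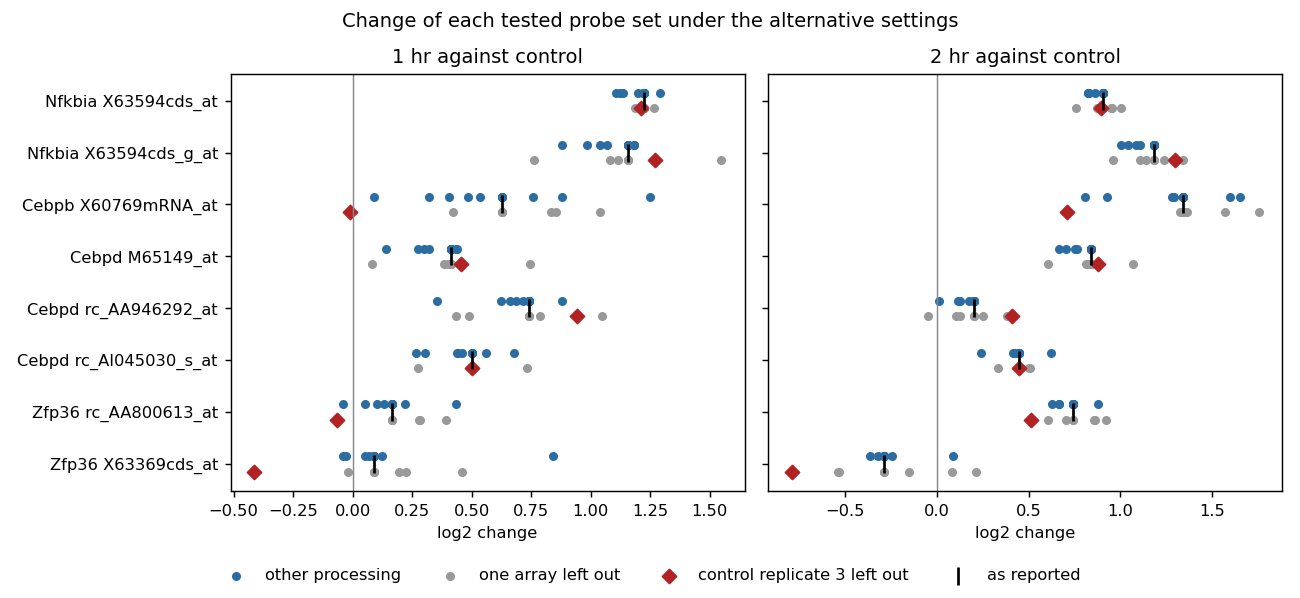
Log2 change (x axis) of the 8 tested probe sets (y axis) after 1 hr and after 2 hr against control under the alternative settings. Both Nfkbia probe sets stay at 0.76 or higher in every setting, whereas leaving out control replicate 3 (diamonds) brings Cebpb to -0.0090 after 1 hr and X63369cds_at of Zfp36 to -0.41 after 1 hr and -0.79 after 2 hr. For Nfkbia no array left out could change the direction, since all exposed arrays lay above all controls.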

How the data were processed

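The authors deposited 1 linear intensity per probe set and array. The labels and headers name no software, scaling or detection call. The 2% trimmed means lay between 150.17 and 150.32, so the columns were used as deposited. A floor of 9.1 (log2 3.19), the 20th percentile over the whole table, was set before log2 was taken here. The 59 control probe sets were left out, and the 7770 of 8740 others above the floor on at least 2 of 8 arrays were tested. Limma 3.58.1 in R 4.3.3 (lmFit, contrasts.fit, eBayes with trend) fitted a mean for each group over all 8 arrays, with Benjamini-Hochberg adjustment, two-sided, threshold 0.05. The steps were tested on simulated data. Symbols come from the platform annotation, updated through RefSeq (GRCr8, names only): 7006 probe sets had 1 symbol, 308 several and 1426 none, and only the first kind is named. The number of arrays limits the precision.

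The 4 genes and all gene lists were chosen with earlier results of these data known. All probe sets of the 4 genes are named. From each pathway list the first 4 tested genes in written order are named, on their brightest probe set, and for each regulator the 3 genes of highest Pearson's r. Promoter motifs were chosen with the Nfkbia and Cebpb promoters in view. The alternatives were other scalings, floors, filters and variance models, blocks, the compared groups alone, and each array left out.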

Additional observations from a re-analysis of the deposited data

How the results depend on the processing

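Over 20 alternative settings 0 probe sets passed in any comparison, except without a filter on low values, where limma called 4 after 1 hr against control and 4 for 2 hr against 1 hr. Nfkbia kept its direction against control in every setting: X63594cds_at ran from 1.11 to 1.29 after 1 hr and from 0.76 to 1.002 after 2 hr, and X63594cds_g_at from 0.76 to 1.55 and from 0.96 to 1.35 (log2). Leaving out arrays could not have changed that direction, since all exposed arrays lay above all controls on both probe sets. Whether the replicate numbers of the titles pair the samples could not be settled. Deviations of same-numbered arrays from their group means correlated between -0.33 and 0.29, with 4 of 7 pairs above 0.1. Of the 8 arrays 2 correlated best with their own number. The 1 hr group holds 2 arrays, so their deviations mirror each other, and these correlations cannot decide the question. With the replicate block 0 probe sets passed in every comparison, X63594cds_at read 1.29 after 1 hr, rc_AA800613_at and X63369cds_at of Zfp36 turned to -0.0386 and -0.0389 after 1 hr, and X63594cds_g_at of Nfkbia to -0.000801 for 2 hr against 1 hr. Median centring turned X63369cds_at to -0.0264 after 1 hr, and quantile normalization turned rc_AI045030_s_at of Cebpd to 0.14 for 2 hr against 1 hr. Arrays left out in turn gave 1 hr changes from -0.0090 to 1.04 for X60769mRNA_at of Cebpb, -0.0657 to 0.39 for rc_AA800613_at and -0.41 to 0.46 for X63369cds_at. For 2 hr against 1 hr they gave -0.37 to 0.42 for X63594cds_g_at, -0.28 to 0.17 for rc_AI045030_s_at and -0.63 to 0.12 for X63369cds_at. With the floor at the 40th percentile 1 of the 3 genes most like Nfkbia and 1 of the 3 most like Cebpb kept r above 0.8. The cause of these shifts was not tested.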

Other observations

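Il1a, the gene of the cytokine interleukin-1-alpha and a target of NF-kappaB, read lower on its brighter probe set in all 5 exposed arrays, and was singled out after its values were seen. D00403_at read 19 and 65.1 after 1 hr and 54.8, 57.6 and 38 after 2 hr, against 89.4, 84.3 and 67.2 in controls. Its log2 change for any exposure against control was -0.94 (SE 0.440) and did not pass (limma, adjusted p = 0.999). The other probe set, D00403_g_at, read 0.16 for the same comparison, so the pair differ in sign. In all, 1% of probe sets had every exposed array below every control, and 2 of the 20 tested NF-kappaB target genes did, Il1a and the near-floor Tnf. Tnf passed the filter through its controls alone and had to differ in that direction. Since Il1a was picked by its values, nothing is read from this count.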
